A study of Mus musculus with 11 samples.

Results

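The genes described here are targets of the transcription factor p53 together with the Bcl2 family and caspases, the proteins that carry out programmed cell death. The group was given as a list of 33 gene symbols, chosen by function but with earlier results of these data known. A row was found for 32 of them among the 13720 genes of the expression table, and all 32 passed the filter on low values (at least 1 CPM in at least 4 libraries) that left 12996 genes for testing. CPM are read counts adjusted for library size, and changes are fitted differences of log2(CPM + 0.5) between genotypes, with the kit set as a second term. Fas, the remaining symbol, was not analysed here.

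The study asked what Meis1 and Meis2, a pair of homeodomain transcription factors, do in early limb development, and it assayed cell death in mutant buds by a separate method. In mutant hindlimb buds the paper described, by TUNEL labelling, very mildly increased cell death in mesoderm and increased cell death in ectoderm. Labelled cells and transcript levels are unlike measures. RNA was sequenced from hindlimb (HL) buds of mouse embryos at E10, with both HLs of 1 embryo in each library, giving 5 WT and 6 M1KO;M2KO libraries (KO below). Of these, 2 WT and 3 KO libraries were made with the NuGen Ovation kit and are numbered S_252 to S_284, and 3 WT and 3 KO libraries were made with the NEBNext Ultra II Directional kit. In the Ovation set WT S_252 was M1wtM2wt, WT S_254 was M1hetM2wt and so carried 1 mutant Meis1 allele under a WT label, and the KO embryos were M1koM2ko. Both Ovation WT embryos were female and from litter 1, whereas the Ovation KO embryos were male and from litters 1, 3 and 4, so that sex and genotype cannot be told apart in that set. The Ovation embryos had between 30 and 33 somites. The NEBNext WT embryos carried only the label WT and the NEBNext KO embryos the genotype HoxB6CreER;Meis1Ko;Meis2KO, at about 30 to 31 somites, with no sex or litter given. HoxB6CreER is a tamoxifen-inducible recombinase active in the lateral plate, HL-forming region included. The study used a conditional Meis2 allele with either a conditional or a constitutive Meis1 deletion, so a KO library can hold cells that kept Meis2. By immunofluorescence the paper found no wild-type Meis protein left in recombined regions, and it described mutant HLs as fully without Meis function.

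p53 is a DNA-binding factor that is kept low by Mdm2 and accumulates after DNA damage and other stresses, when it switches on genes that stop the cell cycle, repair damage or start cell death. In the mitochondrial pathway, BH3-only proteins neutralize the anti-apoptotic Bcl2 proteins and activate Bax and Bak1, which open the outer mitochondrial membrane. Released cytochrome c then assembles Apaf1 and Casp9 into the apoptosome, which activates the executioner caspases, whereas death receptors at the cell surface act through Casp8. In limb buds this machinery shapes the apical ridge, the anterior and posterior margins and later the tissue between the digits.

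Promoter windows (250 bases before to 50 bases after a start site, from RefSeq on GRCm38.p6) existed for 28 of the 32 members, and Trp53inp1, Zmat3, Tnfrsf10b and Pmaip1 had none. They were searched for the p53 consensus, which is a pair of 10-base repeats written without a gap and is named here only, since several of its letters are ambiguous. It reads the same on both strands. The fixed C and G of each repeat had to be present, and at most 3 mismatches were allowed elsewhere. A match was found for 6 of the 28 members (21.4%), compared with 1.86% of the 9829 tested genes that had a window and 1.38% of all 32851 windows. Many members were listed because they are p53 targets, so the higher share among them is not an independent result. Each stretch shown is the alignment with the fewest mismatches to the p53 consensus in its window. The capitals mark the whole aligned stretch, mismatched letters included.
Ccng1: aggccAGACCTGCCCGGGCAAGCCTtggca
Cdkn1a: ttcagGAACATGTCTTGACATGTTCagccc
Gtse1: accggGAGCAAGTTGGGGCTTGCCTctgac
Aen: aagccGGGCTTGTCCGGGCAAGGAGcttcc
Bbc3: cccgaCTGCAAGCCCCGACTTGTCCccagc
Sesn1: ccttcAAGCTTGTTTTTGCTGGCCTggtcc

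On GRCm38.p6 the printed stretches lay at chr11:40755457-40755486 on the minus strand for Ccng1, and on the plus strand at chr17:29090923-29090952 for Cdkn1a, chr15:85859940-85859969 for Gtse1, chr7:78895932-78895961 for Aen, chr7:16309481-16309510 for Bbc3 and chr10:41887261-41887290 for Sesn1. Ccng1 had 1 window, Cdkn1a, Gtse1, Aen and Sesn1 had 2 and Bbc3 had 3, so most start sites here are among several. Counted from the start site of its window, the match began 195 bases before in Ccng1, 51 before in Cdkn1a and 1 before in Gtse1. It began 97 before in Bbc3, 173 before in Sesn1 and 10 bases after in Aen. The Sesn1 and Bbc3 matches began at 41887266 and 16309486, inside genes that start at 41809935 and 16308393. Ccng1, Cdkn1a and Gtse1 departed from the consensus by 1 mismatch, and Aen, Bbc3 and Sesn1 by 3. A limit of 2 mismatches kept only the first 3 of these genes. A match of letters describes the sequence and is not evidence of binding. Sites with a gap or outside the windows were not sought, so a member without a match can still hold one.

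No member passed the test between KO and WT HL buds (limma, Benjamini-Hochberg adjusted over 12996 genes), against a background of 272 genes or 2.09% of all genes tested, of which 1.04% were higher and 1.05% lower. An unadjusted p under 0.05 was reached by 5 members, compared with 14.7% of all genes (7.31% with a higher and 7.43% with a lower level in KO). Of these, Bmf, Trp53inp1 and Pmaip1 had higher means in KO and Cdkn1a and Aen lower means. In none of the 32 were all KO libraries beyond all WT libraries, whereas 3.49% of all genes separated in that way. The share of all genes with 5 of 6 KO libraries beyond all WT libraries was not counted. The median log2 change over the members was 0.03, with 18 of 32 above 0, and over all genes it was 0.00, with 50.2% above 0. Members with a consensus match had a median log2 change of 0.00 (n = 6, 3 of them below 0), and those without had -0.02 (n = 22, 11 of them below 0).

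The intervals show how large a change these libraries could have missed, but they may be too narrow. They rest on values that the authors had corrected for batch, after which residual variance can be understated. In the Ovation set they also cannot separate genotype from sex. For 29 of 32 members the 95% interval of the fold change stayed within 2-fold either way, compared with 89.2% of all genes, and for 24 it stayed within 1.5-fold, compared with 66.8%. The 3 members whose intervals reached beyond 2-fold were Cdkn1a, Pmaip1 and Bmf. In bulk tissue fewer cells that express a gene and less RNA per cell cannot be told apart.

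**Figure D1:**
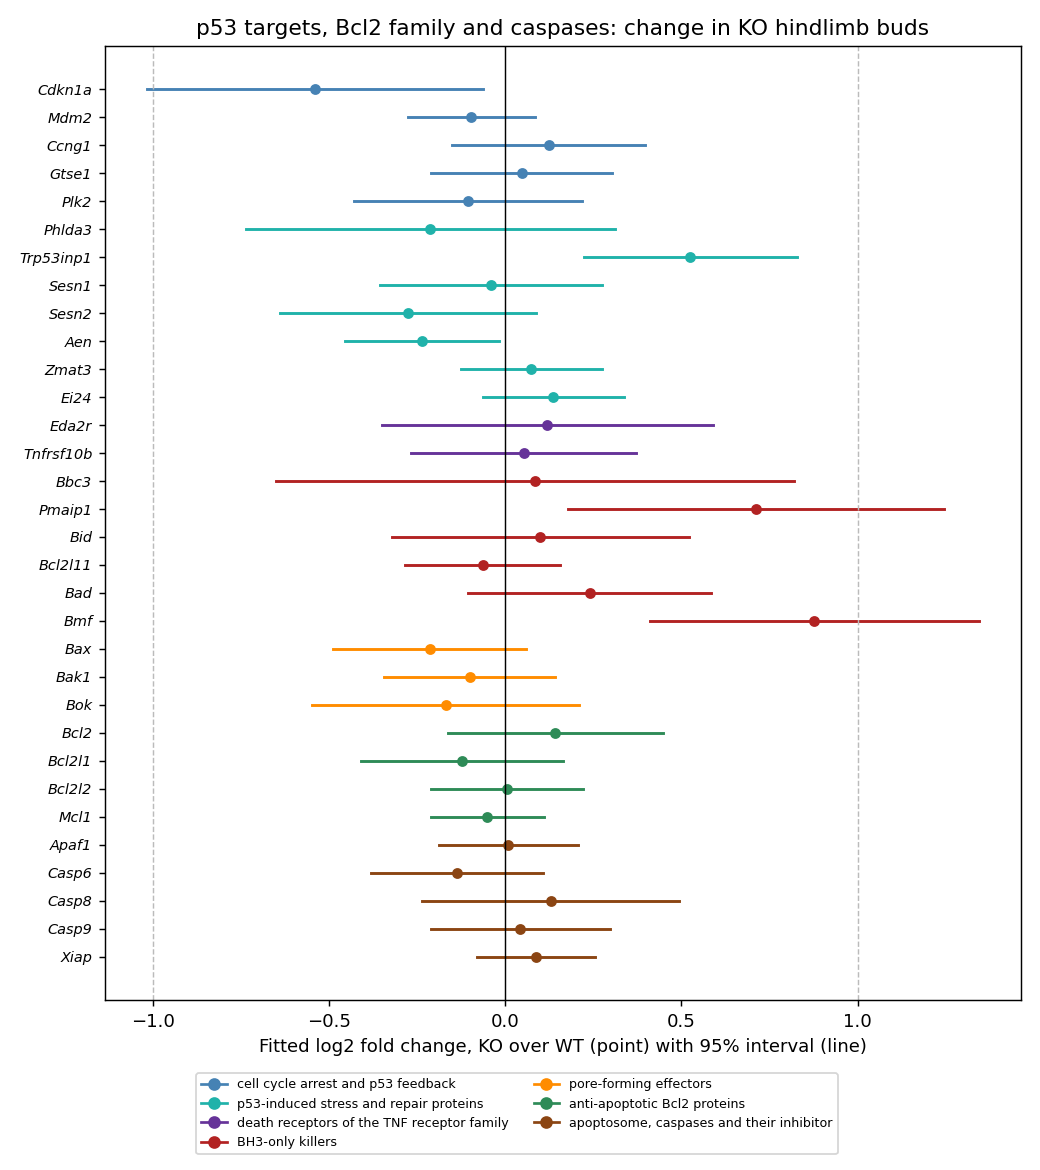
Fitted log2 fold change of KO over WT for each of the 32 members (points) with its 95% interval (lines), coloured by class, from limma on log2(CPM + 0.5) with genotype and library set as terms. Bmf (0.88), Pmaip1 (0.71) and Trp53inp1 (0.52) lie farthest to the right and Cdkn1a (-0.54) farthest to the left, and no member passed the adjusted threshold.

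A few facts of the whole series bear on these values. The deposited CPM summed to between 754534 and 805762 per library, no value was 0, and read totals were not given, so the depth is unknown and no counting interval can be stated. Meis1 ranged over 105.6 to 149.7 CPM (WT) and 110.3 to 158.2 CPM (KO), and Meis2 over 180.1 to 239.4 (WT) and 176.4 to 285.5 (KO), with adjusted p of 0.755 and 0.864. These are gene-level totals over all exons, and the conditional Meis2 allele removes only part of the gene, so they do not check the genotype labels. Of the 10 limb mesenchyme and HL markers all were measured, their summed level was 829.5 to 1063 CPM in WT and 992.3 to 1291 in KO, and 1 of them passed the test. Fitted changes were above 0 for 8 of the 10, compared with 50.2% of all genes. An unadjusted p under 0.05 was reached by 4 with a higher and 1 with a lower level in KO. Over all genes these shares were 7.31% and 7.43%. The gene with the lower level, Msx1, a homeobox gene of early limb mesenchyme, fell from 62.8 ± 7.03 to 38.6 ± 2.32 CPM (log2 change -0.69, adjusted p = 0.00275).

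Transcript levels of the members spanned a wide range. Levels between genes are compared here as CPM per kilobase of exon, with exon lengths from GENCODE M21. The WT median was 4.06 CPM per kb over the members and 4.43 over all genes with a length, and 15 members lay above the latter. Mcl1 stood highest at 55.1 CPM per kb in WT, above 95.7% of genes, and was followed by Bak1 at 17.5, Bax at 17.0, Ccng1 at 16.0, Ei24 at 15.5 and Mdm2 at 14.1. At the other end were Bbc3 at 0.367, Pmaip1 at 0.427 and Eda2r at 1.07 CPM per kb. Among the anti-apoptotic genes the order in WT was Mcl1, Bcl2l1 (4.24), Bcl2l2 (3.87) and Bcl2 (2.10 CPM per kb), and it was Mcl1, Bcl2l1 (3.89), Bcl2l2 (3.88) and Bcl2 (2.31 CPM per kb) in KO, where Bcl2l1 and Bcl2l2 were within the spread of the libraries.

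**Figure D2:**
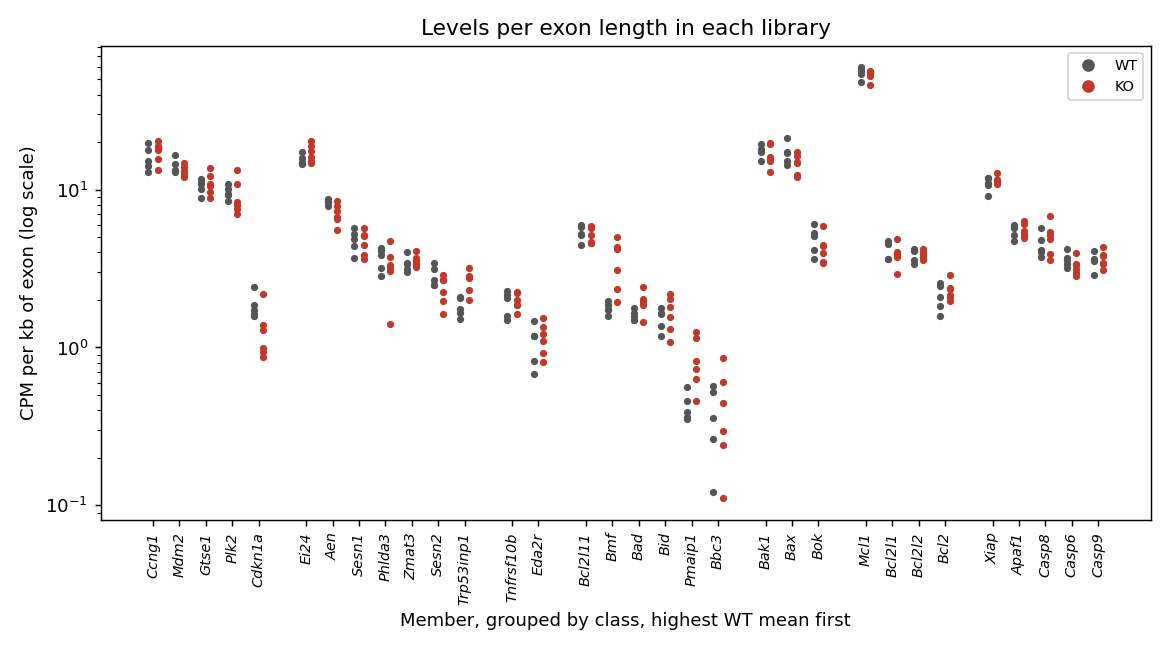
Level of each member in every library as CPM per kilobase of exon on a log axis, by class, with WT and KO libraries side by side. Mcl1 is highest (WT mean 55.1) and Bbc3 lowest (WT mean 0.367), and the WT and KO points overlap for every member.

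The first class holds 5 genes of cell cycle arrest and p53 feedback. None passed the test, 1 had an unadjusted p under 0.05, and the median log2 change was -0.10. Cdkn1a (p21, an inhibitor of cyclin-dependent kinases and the best known p53 target, chr17:29090976-29100727) had a lower mean in KO. In WT, Cdkn1a was at 5.66 CPM in S_252, 5.81 in S_254, 6.57 in WT 1, 8.55 in WT 3 and 6.13 in WT 4. KO libraries ranged from 3.08 to 7.77 with a median of 4.04 CPM. Except for KO S_258, at 7.77, every KO library was below every WT library. The means were 6.54 ± 1.17 (SD, n = 5) and 4.53 ± 1.75 CPM (n = 6), and the fitted log2 change of -0.54 ± 0.22 (SE), 1.45-fold lower, had an adjusted p of 0.269 (unadjusted p = 0.0297). On the log2 scale the difference was -0.20 among Ovation libraries and -0.81 among NEBNext libraries, and the test of the difference between sets gave an adjusted p of 0.578.

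Mdm2 (the ubiquitin ligase that degrades p53 and is itself a p53 target, chr10:117688875-117710758) was at 83.7 CPM in WT S_252, 73.8 in S_254, 67.4 in WT 1, 65.7 in WT 3 and 66.8 in WT 4. Its KO libraries ranged from 60.6 to 75.4 CPM with a median of 65.5. The groups overlapped, at 71.5 ± 7.54 and 66.8 ± 5.31 CPM (log2 change -0.10 ± 0.08, adjusted p = 0.672), and the 95% interval reached from 0.825 to 1.06 times the WT level. The higher WT values all came from the Ovation set. There Mdm2 was lower in KO by 0.31 on the log2 scale, from 78.8 to 63.4 CPM, while NEBNext libraries averaged 66.6 CPM in WT against 70.3 in KO (log2 change 0.07).

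Ccng1 (cyclin G1, which recruits a phosphatase to Mdm2, chr11:40748552-40755311) had fitted changes of opposite sign in the library sets. In WT, Ccng1 was at 69.8 CPM in S_252, 62.2 in S_254, 53.2 in WT 1, 49.4 in WT 3 and 45.7 in WT 4. In KO the values ranged from 46.9 to 71.1 with a median of 63.2 CPM. Within the NEBNext set each KO library (62.3 to 71.1 CPM) was above each WT library, with a log2 change of 0.43 (unadjusted p = 0.00179, adjusted p = 0.159), whereas in the Ovation set the change was -0.26. Over all libraries the means of 56.0 ± 9.82 and 61.1 ± 8.72 CPM gave a log2 change of 0.12 ± 0.13 (adjusted p = 0.734).

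Gtse1, a microtubule-binding protein that restrains p53 after DNA damage, was at 28.8 ± 3.02 CPM in WT and 29.9 ± 4.78 in KO. Plk2, a Polo-like kinase, was at 43.3 ± 4.06 and 41.2 ± 10.9 CPM. In the latter 4 KO libraries were below every WT library while KO S_284, at 59.9 CPM, was above them all.

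The class of p53-induced stress and repair proteins had 7 members, none passed, and the median log2 change was -0.04. Trp53inp1 (a nuclear protein that promotes p53 phosphorylation and autophagy, chr4:11156431-11174379) had the higher mean in KO. In WT, Trp53inp1 was at 13.5 CPM in S_252, 9.87 in S_254, 13.2 in WT 1, 11.3 in WT 3 and 10.7 in WT 4. In KO it ranged from 12.9 to 20.6 with a median of 17.9 CPM, and 5 of the 6 KO libraries were above all WT libraries. The exception was KO 4 at 12.9 CPM. The means of 11.7 ± 1.59 and 17.2 ± 2.76 CPM gave a log2 change of 0.52 ± 0.14, or 1.44-fold, with an unadjusted p of 0.00235 and an adjusted p of 0.0778. Its size was similar in the Ovation (0.53) and NEBNext (0.52) sets, with a difference between sets of -0.01 on the log2 scale (95% interval -0.64 to 0.62). Without KO 4 the log2 change was 0.62 and the adjusted p 0.0263, past the threshold. Of the 11 fits with 1 library left out, this was the only 1 that passed, and their log2 changes were 0.45 to 0.62. Over all alternatives the adjusted p of Trp53inp1 reached 0.229.

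Aen (an exonuclease induced by p53 that digests DNA in dying cells, chr7:78895854-78911209) was at 50.2 CPM in WT S_252, 45.4 in S_254, 48.2 in WT 1, 48.1 in WT 3 and 48.1 in WT 4. Values of the KO libraries ranged from 32.2 to 48.9 CPM with a median of 40.9, and 4 of 6 were below every WT library. The KO libraries spread more widely than the WT libraries, with coefficients of variation of 14.7% and 3.56%. The means were 48.0 ± 1.71 and 41.0 ± 6.03 CPM (log2 change -0.24 ± 0.10, unadjusted p = 0.0365, adjusted p = 0.295).

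Of the other members of that class, Sesn2, a stress-induced inhibitor of growth signalling through mTORC1, was at 9.87 ± 1.45 CPM in WT and 8.15 ± 1.70 in KO (log2 change -0.28, adjusted p = 0.494). Its relative Sesn1 was at 19.0 ± 3.09 and 18.5 ± 3.23 CPM. Phlda3, which competes with Akt for membrane lipids, was at 5.68 ± 0.952 and 5.04 ± 1.67 CPM. Zmat3, an RNA-binding zinc finger protein, was at 38.8 ± 4.49 and 40.8 ± 3.40 CPM, and Ei24, a protein of the endoplasmic reticulum, at 75.3 ± 5.39 and 83.1 ± 10.9 CPM. The log2 changes of these last 4 genes lay between -0.21 and 0.14, with overlapping groups.

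Death receptors were represented by 2 measured genes. Eda2r (the receptor for ectodysplasin A2, chrX:97333840-97377216) was at 6.97 CPM in WT S_252, 6.94 in S_254, 4.86 in WT 1, 3.99 in WT 3 and 8.67 in WT 4. KO libraries ranged from 4.74 to 9.08 CPM with a median of 6.82, within nearly the same span. The log2 change was 0.12 ± 0.22 (adjusted p = 0.875), with opposite signs in the Ovation (-0.16) and NEBNext (0.34) sets. Tnfrsf10b, the mouse TRAIL receptor, was at 10.4 ± 1.92 and 10.7 ± 1.31 CPM. No KO library was outside the WT range for this gene.

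The BH3-only killers had 6 members and the highest class median, a log2 change of 0.17. Of the 6, 5 were above 0, compared with 50.2% of all genes. By kit the class median differed, at 0.33 for Ovation and 0.08 for NEBNext libraries. Only 3 of 6 members kept their sign, since Bbc3, Bid and Bcl2l11 were above 0 with Ovation and below 0 with NEBNext. No member of the class passed the test. An unadjusted p under 0.05 was reached by 2, Bmf and Pmaip1, compared with 14.7% of all genes. Bmf (a BH3-only protein held at the cytoskeleton that is known to respond to loss of cell attachment, chr2:118528757-118549687) had the smallest p of all members. In WT, Bmf was at 10.3 CPM in S_252, 8.26 in S_254, 9.18 in WT 1, 9.10 in WT 3 and 9.72 in WT 4. The KO libraries ranged from 10.2 to 26.2 with a median of 19.2 CPM, and 5 of 6 were above all WT libraries. KO 4 stood at 10.2 CPM, just below the highest WT library. The means were 9.31 ± 0.755 (n = 5) and 18.3 ± 6.34 CPM (n = 6), and the log2 change of 0.88 ± 0.22, or 1.84-fold (95% interval 1.33 to 2.54), had an unadjusted p of 0.00131 and an adjusted p of 0.0566.

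The Bmf values spread far more in KO (coefficient of variation 34.7%) than in WT (8.11%). The difference was present in both library sets, with a log2 change of 0.80 (unadjusted p = 0.0125) among Ovation libraries and of 0.94 (unadjusted p = 0.00968) among NEBNext libraries. Bmf was past the threshold without KO S_280 (log2 change 0.96, adjusted p = 0.0462) or without KO 4 (1.07, adjusted p = 0.00616), the KO libraries in which it was lowest. It was not past the threshold when any of the other 9 libraries was left out.

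Pmaip1 (Noxa, which acts mainly against Mcl1, chr18:66458533-66465565) was close to the filter on low values. In WT, Pmaip1 was at 0.994 CPM in S_252, 1.07 in S_254, 0.968 in WT 1, 1.26 in WT 3 and 1.54 in WT 4. In KO the values ranged from 1.26 to 3.41 with a median of 2.12 CPM, and all but KO 3 were above every WT library. The means of 1.17 ± 0.238 and 2.30 ± 0.826 CPM gave a log2 change of 0.71 ± 0.25 (unadjusted p = 0.0127, adjusted p = 0.182), which is understated by the pseudocount of 0.5 at such levels.

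Bad, which links survival kinases to the Bcl2 family, was at 4.08 ± 0.315 CPM in WT and 4.95 ± 0.791 in KO. Again 5 KO libraries were above every WT library, but KO 2, at 3.72 CPM, was below them all, and the log2 change of 0.24 had an adjusted p of 0.548. Bid, which carries the signal from Casp8 to mitochondria, was at 5.38 ± 0.850 and 5.89 ± 1.49 CPM. Bcl2l11 (Bim), the BH3-only gene with the highest level, was at 42.7 ± 4.81 and 40.9 ± 4.78 CPM, and all KO libraries lay within the WT range. Bbc3 (Puma), a strong p53 target with a consensus match in a promoter window, was at 0.779 ± 0.393 and 0.904 ± 0.575 CPM (95% interval 0.637 to 1.77 times WT), the widest relative spread of all members.

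**Figure D3:**
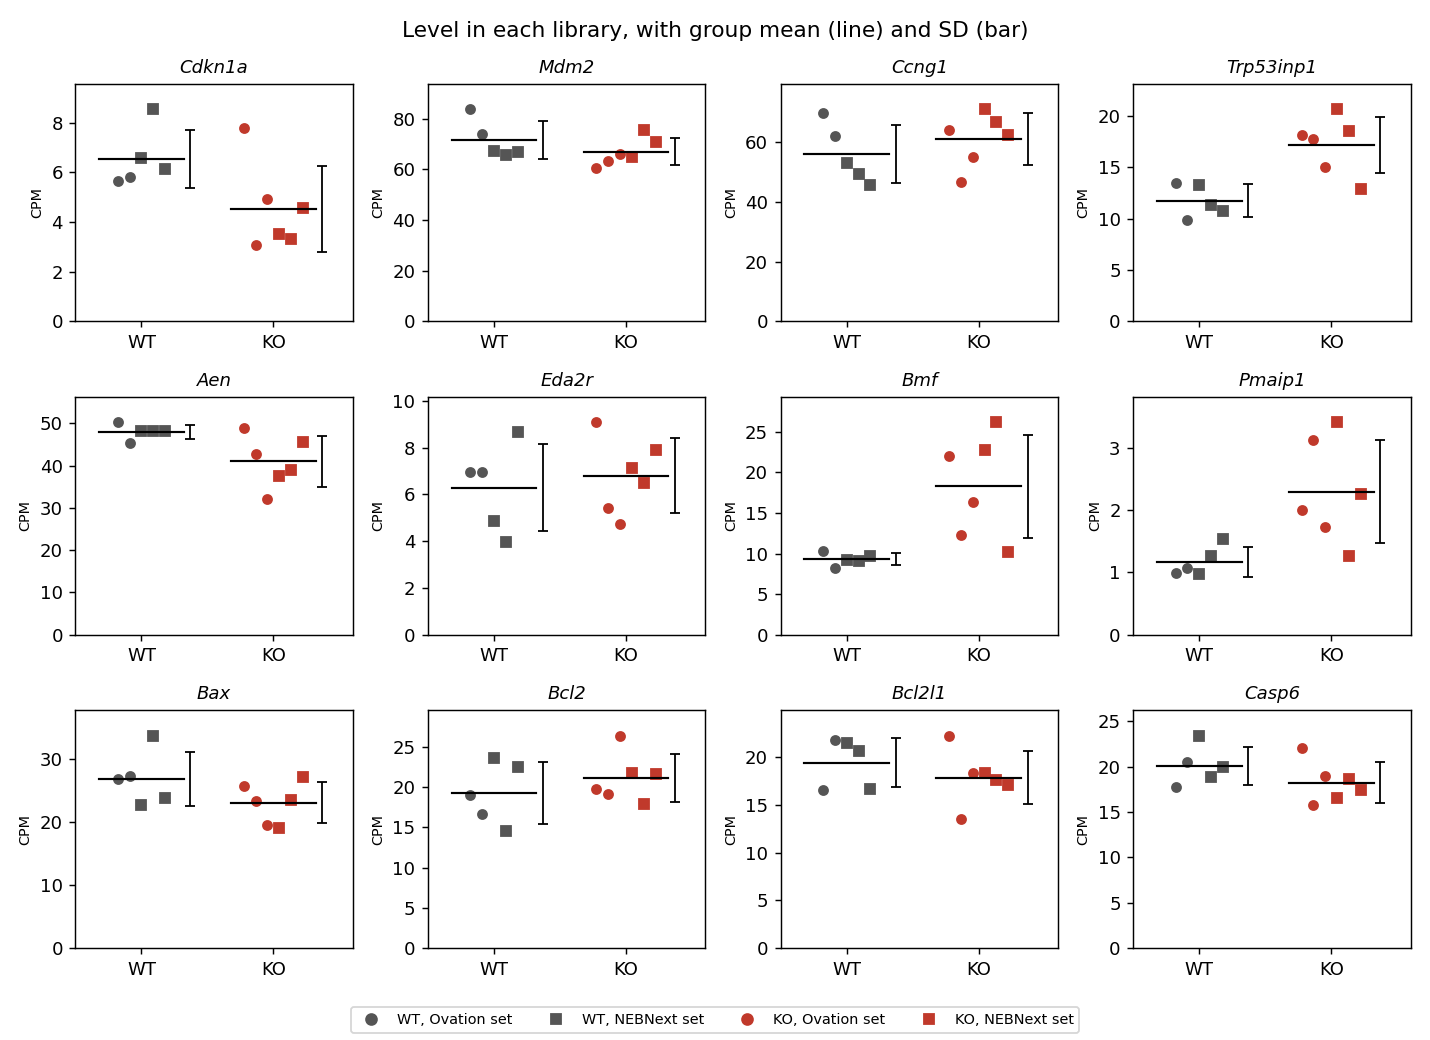
CPM of 12 members in each library, with the group mean (line) and SD (bar), on axes that start at 0. In Bmf and Trp53inp1 5 of 6 KO libraries lie above all WT libraries and KO 4 does not, and in Cdkn1a 5 of 6 KO libraries lie below all WT libraries and KO S_258 does not.

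The pore-forming effectors, 3 genes, all had fitted changes below 0, and none passed. Bax (chr7:45461697-45466898), a p53 target and the main effector with Bak1, was at 26.8 CPM in WT S_252, 27.2 in S_254, 22.7 in WT 1, 33.7 in WT 3 and 23.8 in WT 4. Values of the KO libraries ranged from 19.0 to 27.1 CPM with a median of 23.3, and 2 of them were below every WT library. The means were 26.8 ± 4.29 and 23.0 ± 3.23 CPM (log2 change -0.21 ± 0.13, adjusted p = 0.479, 95% interval 0.713 to 1.04 times WT). Bak1 was at 42.2 ± 3.85 and 39.6 ± 6.23 CPM, and Bok, an effector that does not need activation by BH3-only proteins, at 8.90 ± 1.77 and 7.87 ± 1.66 CPM.

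All 4 anti-apoptotic genes had intervals within 1.5-fold either way. Bcl2 (chr1:106538178-106714274), the founding member of the family, was at 19.1 CPM in WT S_252, 16.7 in S_254, 23.6 in WT 1, 14.5 in WT 3 and 22.5 in WT 4. KO libraries ranged from 17.9 to 26.4 CPM with a median of 20.7, overlapping WT (log2 change 0.14 ± 0.14, adjusted p = 0.724). Bcl2l1 (Bcl-xL, chr2:152780668-152831728) was at 16.6 CPM in WT S_252, 21.8 in S_254, 21.5 in WT 1, 20.7 in WT 3 and 16.6 in WT 4. Its KO libraries ranged from 13.5 to 22.2 CPM with a median of 17.9 (log2 change -0.12 ± 0.13, adjusted p = 0.753). Mcl1, a short-lived protein needed in early embryos, was at 188.3 ± 15.3 and 181.8 ± 13.0 CPM, with a 95% interval of 0.863 to 1.08 times WT. Bcl2l2 (Bcl-w) was at 17.3 ± 1.65 and 17.3 ± 0.974 CPM.

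Apaf1, the scaffold of the apoptosome, was at 49.5 ± 4.71 CPM in WT and 49.9 ± 5.08 in KO, a log2 change of 0.01, and Casp9, its initiator caspase, at 18.5 ± 2.26 and 19.0 ± 2.26 CPM. Casp8, the initiator downstream of death receptors, was at 12.9 ± 2.24 and 14.4 ± 3.34 CPM. Xiap, the X-linked inhibitor of caspases, was at 103.3 ± 10.4 and 109.4 ± 6.13 CPM. Casp6 (an executioner caspase that cleaves lamins, chr3:129901425-129914103) had the smallest p of these 5 genes. In WT, Casp6 was at 17.7 CPM in S_252, 20.5 in S_254, 23.4 in WT 1, 18.8 in WT 3 and 19.9 in WT 4. In KO the values ranged from 15.8 to 22.1 with a median of 18.0 CPM, and 3 of 6 were below every WT library (log2 change -0.14 ± 0.11, adjusted p = 0.647). All 5 genes had intervals within 1.5-fold either way.

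The balance of killer to survival transcripts was described with sums per exon length, a choice made after the values were seen and therefore given without a test. BH3-only genes summed to 0.169 ± 0.0127 of the anti-apoptotic genes in WT and 0.213 ± 0.0230 in KO. The lowest KO library (0.183, KO 4) was close to the highest WT library (0.182, S_252). Without Bmf the ratio was 0.142 ± 0.00925 in WT and 0.158 ± 0.0120 in KO, and the groups overlapped. Bmf made up 16.1% ± 1.39 of the BH3-only sum in WT and 25.7% ± 8.01 in KO. Bax stood at 8.56 ± 3.15 times Bcl2 in WT and 6.48 ± 1.42 times in KO, with overlap between groups.

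The library sets were next compared, since they were made with different kits. The fitted change had the same sign in both sets for 16 of 32 members, compared with 52.0% of all genes. Within the Ovation set 3 members, Mdm2, Trp53inp1 and Bmf, had an unadjusted p under 0.05 (background 17.1%) and none passed the adjusted threshold (1.15%). Within the NEBNext set 5, Cdkn1a, Ccng1, Trp53inp1, Aen and Bmf, had an unadjusted p under 0.05 (background 12.0%) and none passed (0.0231%). In the test of the difference between sets 2 members had an unadjusted p under 0.05, compared with 13.0% of all genes, and no gene passed after adjustment. The pair consisted of Ccng1, whose change was higher in the NEBNext set by 0.69 on the log2 scale (95% interval 0.31 to 1.07, unadjusted p = 0.00192, adjusted p = 0.155), and Mdm2, by 0.38 (0.09 to 0.67, unadjusted p = 0.0133, adjusted p = 0.261).

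**Figure D4:**
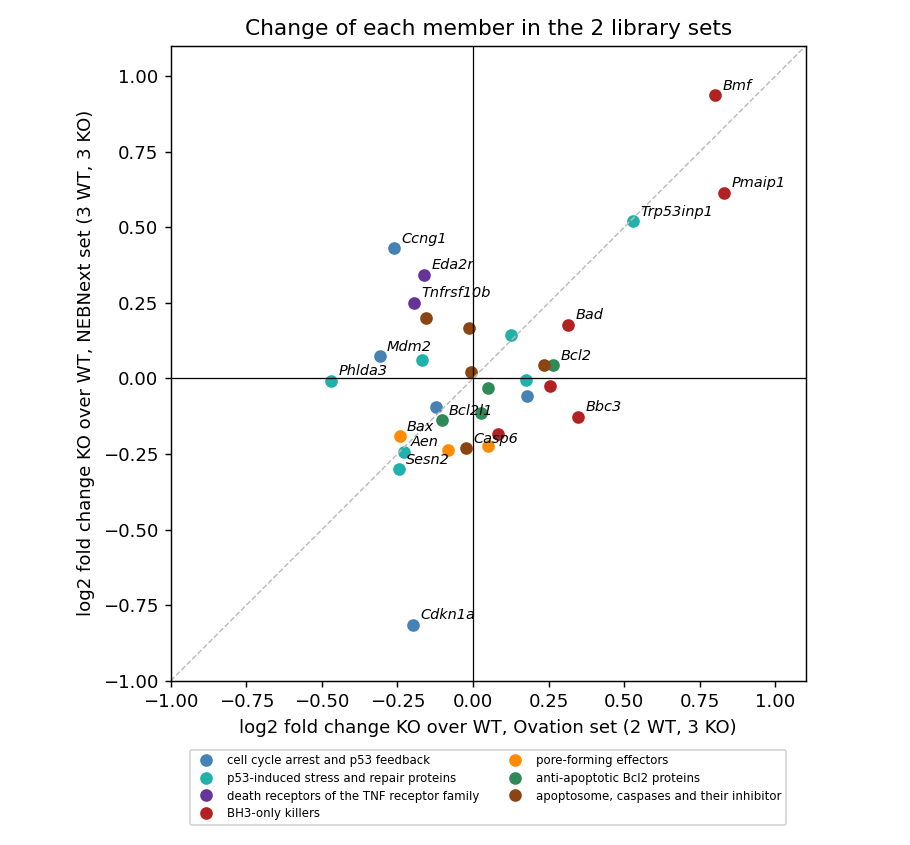
Log2 fold change of KO over WT for each member in the Ovation set (horizontal axis) and the NEBNext set (vertical axis), with the dashed line marking equal change. Bmf, Pmaip1 and Trp53inp1 lie in the upper right and Cdkn1a at the bottom, and Ccng1 (-0.26 and 0.43) lies far from the dashed line.

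Single libraries did not set the members apart as a whole. The mean deviation of the members from their own averages lay between -0.05 (WT 3) and 0.07 (KO S_258) on the log2 scale. KO S_258 held the highest value of all 11 libraries for 5 members and the lowest for 5, and KO S_280 the highest for 2 and the lowest for 6. KO S_280 was lowest for Cdkn1a, Phlda3 and Sesn2, which KO S_258 held at the highest KO level.

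**Figure D5:**
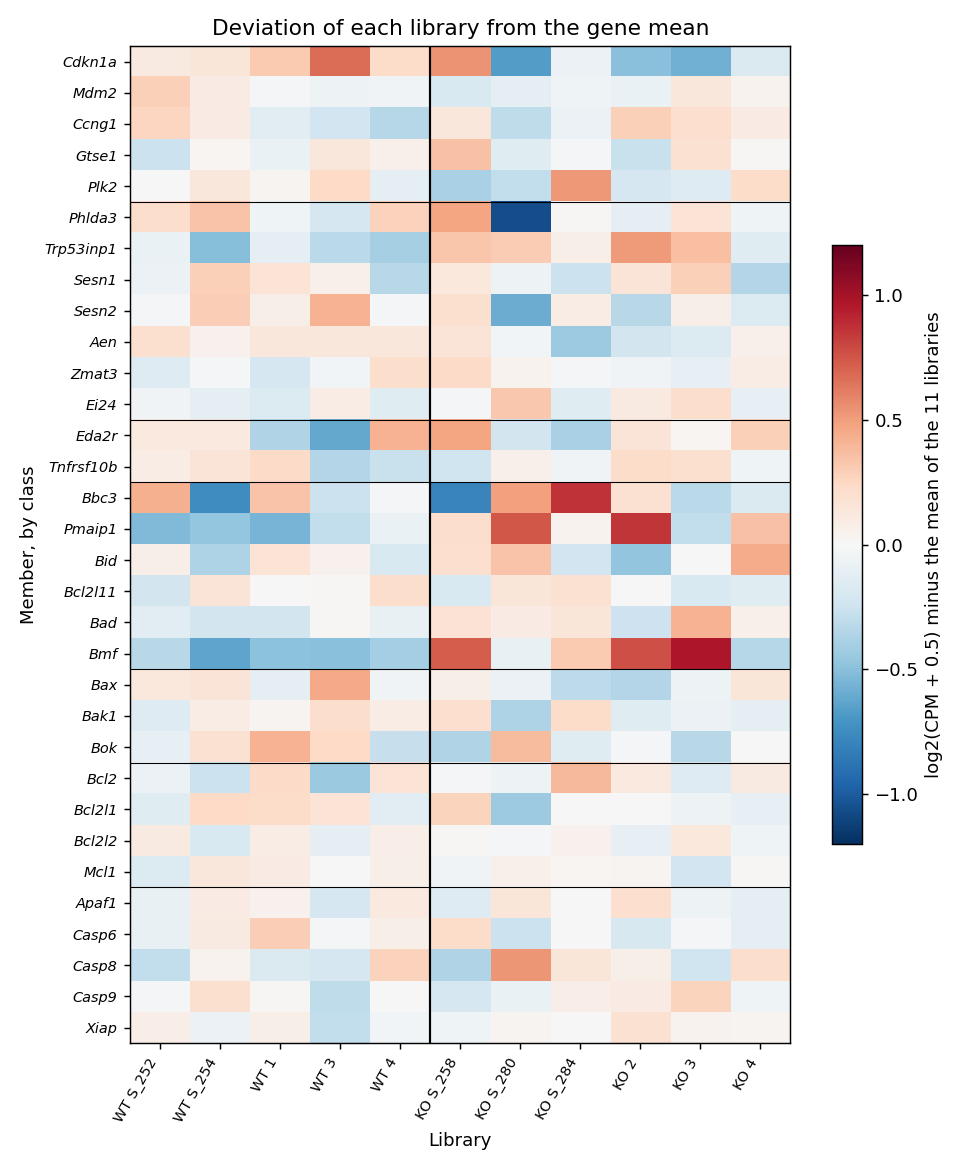
Deviation of each library from the mean of the 11 libraries on the log2(CPM + 0.5) scale, for the 32 members in rows by class and the libraries in columns, with WT on the left of the vertical line. In Bmf, Trp53inp1, Pmaip1 and Bad 5 of 6 KO libraries lie above all WT libraries. In Cdkn1a 5 of 6 KO libraries lie below all WT libraries, KO S_258 excepted, and in Aen and Plk2 4 of 6 do.

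Other genes of these pathways were taken from lists chosen by function, also with earlier results of these data known. Of 13 measured genes of the p53 family, its kinases and its regulators none passed in either direction, and the median log2 change was 0.06. Trp53 itself, the gene for p53, was at 163.0 ± 24.0 CPM in WT and 172.4 ± 17.5 in KO (adjusted p = 0.788), and Ppm1d, a phosphatase that switches p53 off, had the smallest p of the list at 31.2 ± 2.21 and 35.5 ± 4.13 CPM (adjusted p = 0.425). Of 20 further p53 targets none passed, with a median log2 change of 0.01. Sesn3, another sestrin, had the smallest p there, at 36.0 ± 6.51 CPM in WT and 47.2 ± 4.86 in KO (log2 change 0.41, adjusted p = 0.0954). None of the 4 measured further Bcl2 family genes passed. Bnip3, a mitophagy receptor, had the smallest p among them, at 64.0 ± 33.1 and 48.7 ± 10.2 CPM (adjusted p = 0.701).

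Of 18 further caspases, mitochondrial factors and inhibitors 1 was lower and none higher, compared with 1.05% and 1.04% of all genes tested. The lower gene was Cycs, somatic cytochrome c, a carrier of the respiratory chain that triggers the apoptosome when it leaves mitochondria. Its level lay between 93.3 and 115.9 CPM in WT libraries and between 74.7 and 86.3 CPM in KO libraries, with no overlap. The log2 change was -0.37 ± 0.07, 1.29-fold lower (adjusted p = 0.0212), and was -0.51 among Ovation libraries and -0.25 among NEBNext libraries. It missed the threshold without WT S_252 (adjusted p = 0.0774), without WT S_254 (0.0676) or without KO 2 (0.0738), with log2 changes of -0.31, -0.36 and -0.35. The call was also lost with the Ovation libraries limited to litter 1 (log2 change -0.34, adjusted p = 0.107) and without the variance trend (-0.37, adjusted p = 0.0599).

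Of 20 genes of mitosis and replication none passed, with a median log2 change of 0.03. Mki67, the gene of the proliferation antigen Ki-67, had the smallest p, at 801.8 ± 50.3 CPM in WT and 972.9 ± 55.7 in KO (log2 change 0.28, adjusted p = 0.0508). Of 9 measured immediate early and integrated stress response genes 1 was higher and 1 lower, compared with 1.04% and 1.05% of all genes tested. An unadjusted p under 0.05 was reached by 1 with a higher and 3 with a lower level in KO. Over all genes these shares were 7.31% and 7.43%. Jun, a subunit of the AP-1 transcription factor, rose from 7.22 ± 1.74 to 13.7 ± 1.62 CPM (log2 change 0.90 ± 0.16, 1.87-fold, adjusted p = 0.0110), with no overlap. This call for Jun was lost with litter 1 alone in the Ovation set (log2 change 0.86, adjusted p = 0.0681). Egr1 and Ier2, also immediate early genes, went the other way without passing. Egr1 was at 3.66 ± 0.478 CPM in WT and 1.75 ± 0.596 in KO, with no overlap (log2 change -0.93, adjusted p = 0.0504). Ier2 was at 13.5 ± 2.09 CPM in WT and 9.44 ± 1.85 in KO (log2 change -0.50, adjusted p = 0.146). Asns, asparagine synthetase and a target of Atf4, fell from 96.1 ± 10.99 to 62.6 ± 10.8 CPM (log2 change -0.63 ± 0.11, adjusted p = 0.0130), also with no overlap. Without WT S_254 the log2 change of Asns was -0.58 and its adjusted p 0.0535, and with litter 1 alone they were -0.60 and 0.0618.

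Markers of other cell types in the bud were set beside the members. Surface ectoderm markers, all 12 measured, summed to 262.7 to 349.6 CPM in WT and 219.2 to 375.9 in KO, and none passed. Krt5 had the smallest p, at 12.2 ± 1.31 and 7.98 ± 2.62 CPM (adjusted p = 0.131). The 10 endothelial markers summed to 227.2 to 305.7 and 247.4 to 337.2 CPM with none passing, Esam having the smallest p (adjusted p = 0.206). Erythroid markers varied most, all 12 measured, with sums from 1831 to 12030 CPM in WT and 1396 to 13370 in KO and none passing (smallest p for Alas2, adjusted p = 0.860).

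Leukocyte markers had 5 of 10 measured, summing to 6.43 to 14.0 CPM in WT and 9.16 to 13.4 in KO, with none passing (Cx3cr1, adjusted p = 0.836). Neuron and neural crest markers had 5 of 12 measured, summing to 16.1 to 24.0 and 15.3 to 23.1 CPM, and none passed. Pou4f1, a factor of sensory neurons, had the smallest p among these, at 1.74 ± 0.868 and 0.484 ± 0.186 CPM (adjusted p = 0.0529). The part of these cell types in the values of the members was not tested.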

How the data were processed

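RNA-seq of HL buds from 5 WT and 6 KO embryos was analysed. Per the labels, expected counts were estimated with RSEM on GRCm38 (CASAVA 1.8.2, cutadapt 1.3 and RSEM 1.2.3 in the Ovation set, and bcl2fastq, cutadapt, RSEM and limma without versions in the NEBNext set). The authors scaled the counts by TMM, removed the batch difference with ComBat and deposited linear CPM for 13720 genes, and whether ComBat was given the genotypes is not stated. Set means differed by under 0.1 (log2) for 96.5% of genes. After this correction residual variance can be understated, and 724 genes no longer reached 1 CPM in 4 libraries and were left out. Depth is unknown, since corrected CPM keep no read totals.

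With limma 3.58.1 under R 4.3.3, log2(CPM + 0.5) was modelled on genotype and library set, with a mean-variance trend and 8 residual degrees of freedom. A gene was taken as changed when its two-sided p, adjusted over 12996 genes by Benjamini-Hochberg, was under 0.05. Each set was also fitted alone, and an interaction tested the difference between sets. The model was tested on simulated data. Tables and figures used Python 3.11.15, pandas 2.3.3, numpy 2.4.6 and matplotlib 3.10.9.

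Members, lists and classes were chosen with earlier results of these data known. Values in every WT library, with the range and median in KO, were given for Cdkn1a, Mdm2, Bax, Bcl2 and Bcl2l1. The same was given for the smallest p of each of the 7 classes, for members with an unadjusted p under 0.05 and for the 2 smallest interaction p. Of each further list, the genes passing the test (at most 4) or the smallest p were named. Trp53, Egr1 and Ier2 fell outside that rule. A marker list fixed for the comparison is not reported here. Alternatives covered pseudocounts (0.1, 1), filters (none, 5 CPM), scalings, variance models, no set term, a replicate block, litter 1 alone and leaving out each library. Exon lengths and positions came from GENCODE M21, with lengths for 99.9% of genes.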

Additional observations from a re-analysis of the deposited data

How the results depend on the processing

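Of 696 recomputed member values 663 kept their direction and their side of the threshold, 6 passed only under the alternative and 27 changed sign. The 11 members that changed sign had log2 changes of at most 0.21 in size. No member passed in the main fit, and the count was 1 with a robust variance prior (Bmf, adjusted p = 0.0394), 2 without the set term (Bmf, log2 change 0.87, adjusted p = 0.0369, and Trp53inp1, 0.52 and 0.0452), and 0 to 2 with 1 library left out (1 without KO S_280, 2 without KO 4). Within the NEBNext set it was 0 to 1, Bmf passing without KO 4, and within the Ovation set and for the difference between sets it was 0 throughout.

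Over all genes, 272 changed in the main fit (135 higher, 137 lower), 402 without the set term, 64 with the replicate block (27 higher, 37 lower) and 101 when the Ovation libraries were limited to litter 1 (39 higher, 62 lower). The replicate block left WT 1 and KO 2 alone in their blocks, so these libraries added nothing to the comparison of genotypes. Without the trend 90 were lower. With 1 library left out the count was 106 (without KO 2) to 340 (without KO 4), with 51 to 169 higher and 55 to 171 lower. It was 129 without WT S_252, 128 without WT S_254 and 167 without KO S_284. The cause was not tested.

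The signs that turned were Phlda3 (0.055), Sesn1 (0.051), Bcl2l2 (-0.0058), Apaf1 (-0.033) and Casp8 (-0.040) with litter 1 alone, Apaf1 with the replicate block (-0.024) and Bcl2l2 with quantile normalization (-0.00050). With 1 library left out the ranges across 0 were -0.028 to 0.12 for Gtse1, -0.13 to 0.045 for Sesn1, -0.016 to 0.24 for Eda2r, -0.029 to 0.12 for Tnfrsf10b, -0.16 to 0.26 for Bbc3, -0.0043 to 0.23 for Bid, -0.053 to 0.047 for Bcl2l2, -0.042 to 0.044 for Apaf1 and -0.029 to 0.12 for Casp9. No scaling moved the median of all genes by over 0.1.

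Replicate numbers 3 and 4 of the NEBNext set occur in both groups, but deviations of same-numbered libraries correlated at 0.20 and -0.04, so the numbers were not taken as pairs. No member passed with the replicate block. Outside the members, with the replicate block Cycs (log2 change -0.35, adjusted p = 0.134), Jun (0.83, 0.0568) and Asns (-0.57, 0.0800) missed the threshold, as they did with litter 1 alone at -0.34, 0.86 and -0.60, while Msx1 passed under every alternative. At most 1 or 2 mismatches left 3 members with a consensus match and 4 gave 7, limits that were chosen after the data were seen. Unknown depth limits the low genes Bbc3 and Pmaip1 most.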
